A study of Drosophila melanogaster with 18 samples.

Results

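The libraries described here come from testes of Drosophila melanogaster in which the cleavage factor gene cbc was knocked down (cbc_KD), set against testes with the driver alone (control). They are 4 of the 18 libraries of the series, 2 per group, chosen by their labels. Control testes had the genotype bamGal4, and cbc_KD testes had bamGal4>cbc-KD with the RNAi stock BL 77426, so both groups carried the driver and cbc_KD alone carried the RNAi. The knockdown is a single RNAi line, made in spermatocytes per the labels. The driver follows the gene bam, which is active in late spermatogonia and early spermatocytes, while a whole testis also holds stem cells, spermatids, somatic cyst cells and sheath. About 150 pairs of testes were pooled per library, dissected in batches of 50 pairs, from progeny moved to 29 °C. Crosses had been kept for 3 days at 25 °C. The labels call the libraries duplicates without saying whether they came from separate crosses, so SDs and p-values measure the spread between these libraries.

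Most genes of animals can end their mRNA at more than 1 place. The cleavage and polyadenylation machinery reads a signal in the nascent transcript, cuts it, and adds the poly(A) tail; where it passes over a near (proximal) site and cuts at a far (distal) one, the mRNA gains a longer 3′ UTR. cbc is the fly homologue of Clp1, an RNA kinase that together with PCF11 makes up cleavage factor II. In the fly testis many genes use different poly(A) sites in early germ cells and in spermatocytes.

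The readout was 3′-end sequencing, in which reads come from the ends of polyadenylated transcripts. The authors counted reads at 1082 poly(A) sites of 529 gene entries. The name of their site list refers to a comparison of bam with spermatocytes, so the genes may have been picked for site use that differs there. The criteria for listing a gene are not given in the sources used here. Rates below therefore hold for the listed genes and may not hold for testis genes in general. The 2 sites with most counts over the series were compared in each entry, and the proximal share is the percent of their counts that fell on the one nearer the start of the gene. Entries averaging 10 or more counts in a library, 525 of them, were tested. Control libraries held 371119 and 342763 counts and cbc_KD libraries 440431 and 443973. Of 22 genes listed for the cleavage machinery, cbc included, 0 were measured, so how much cbc mRNA remained was not measured.

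In cbc_KD, mRNA ends moved to distal sites across most of these genes. The middle gene of a library had a proximal share of 76.1% and 78.6% in the control libraries and 46.3% and 48.4% in the cbc_KD libraries. All 14 libraries of the other knockdowns lay above both cbc_KD values. As a mean over libraries the median share was 77.4% ± 1.72 in control and 47.3% ± 1.51 in cbc_KD (SD, n = 2, exact permutation test, 2-sided, p = 0.3333, the smallest that 2 against 2 libraries allow). The groups do not overlap, and the difference is many times the spread between duplicates. With the counts of all genes summed, the share was 81.9% ± 1.09 in control and 54.3% ± 0.728 in cbc_KD.

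Gene by gene, 318 of 525 moved toward the distal site (60.6%) and 35 toward the proximal one (6.67%), at an adjusted p under 0.05 in edgeR's quasi-likelihood test. The other 172 did not pass. The test is on log2 odds, proximal over distal, so that a negative value means a move toward distal. Over all 525 genes the median change of the share was -16.2 points, and over the 318 it was -34.5 points. The duplicates of a group differed by a median of 3.25 points in control and 4.201 points in cbc_KD. The share fell by at least 30 points in 184 genes and rose by as much in 9. A fall of 50 points or more was seen in 85 genes, and a rise of that size in 1.

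**Figure D1:**
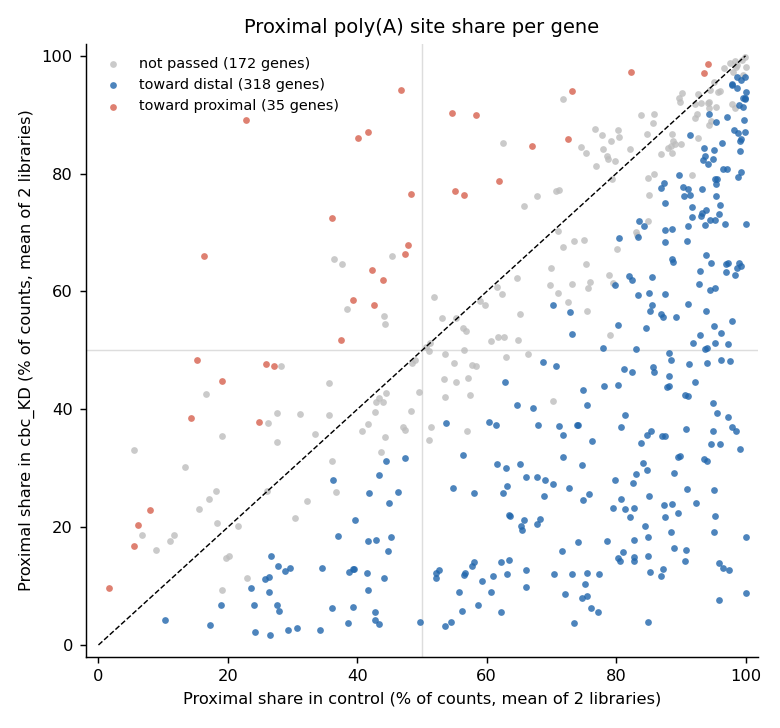
Mean proximal share of each gene (% of counts at its 2 sites, n = 2 libraries) in control on the horizontal axis and in cbc_KD on the vertical axis, for 525 genes; blue points moved toward distal (318), red points toward proximal (35), grey points did not pass. Blue points fill the space below the dashed line of equal shares, from genes near 100% in control downward.

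For many genes the favoured end of the mRNA changed. In 385 genes most counts were at the proximal site in both control libraries, and in 149 of them most counts were at the distal site in both cbc_KD libraries. Of those 149, 143 passed the test. In the other direction, 14 of the 112 genes with a distal majority in both controls had a proximal majority in both cbc_KD libraries, and 10 passed. Among 226 genes with at least 80% proximal use in both controls, 18 were at 20% or less in both cbc_KD libraries.

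The largest falls included genes of many functions. isopeptidase-T-3, a ubiquitin pathway gene named Kpc2 in the current annotation, had proximal shares of 95.8% in both control libraries and of 8.58% and 6.53% in cbc_KD. Its proximal site is at position 19672953 of chromosome 2R in the 3′ UTR, and its distal site 530 nt farther, downstream of the annotated end (builds dm6 and BDGP6 per the submitters' processing notes). Its log2 odds changed by -8.15 ± 0.28 (SE, adjusted p = 3.82e-11). Both controls sat far above both knockdown libraries.

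Trpm, a cation channel gene, had shares of 97.1% and 97.9% in control and of 13.4% and 12.2% in cbc_KD. Its proximal counts were 539 and 611 in control and 24 and 26 in cbc_KD, and its distal counts 16 and 13 against 155 and 187. The groups are wide apart at both sites, and the total of the gene was also lower (log2 -2.24 ± 0.33 SE, adjusted p = 3.61e-05). The distal site, at 15266379 on chromosome 2R, lies in an annotated intron of the same gene. HtrA2, which encodes a mitochondrial serine protease, had shares of 95.2% ± 0.406 in control and 19.2% ± 0.216 in cbc_KD (SD, n = 2; log2 odds -6.37 ± 0.28 SE, adjusted p = 2.59e-10). Both its sites are in the 3′ UTR, at 14509894 and 14509054 of chromosome 3R on the minus strand.

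CG5065 had distal counts of 72 and 88 in control and of 3192 and 3167 in cbc_KD. Its share was 84.9% ± 1.82 in control and 3.86% ± 0.452 in cbc_KD, and its total rose by a log2 value of 2.00 ± 0.17 (SE, adjusted p = 1.35e-07). vih, a ubiquitin-conjugating enzyme of the cell cycle, was at 87.2% ± 1.10 and 12.9% ± 1.01, with a total that did not pass (log2 0.14 ± 0.15, adjusted p = 0.421). Another gene, CG10654, is annotated at both vih sites, and counting ignored strand. Cks30A, a small partner of cyclin-dependent kinases, was at 86.9% ± 0.877 and 11.7% ± 3.70.

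Of the 16 genes with the largest falls, mrj (a DnaJ co-chaperone), ken (a transcriptional repressor), app (a palmitoyltransferase), Trc8 (a ubiquitin ligase), CG7841, CG43341, CG13344 and red had control means between 77.2% (Trc8) and 96.5% (mrj). Their cbc_KD means lay between 5.55% (Trc8) and 21.9% (CG43341). Other genes are annotated at a site of Trc8 (FipoQ), CG43341 (M7BP) and Hr3 (CG12912). Hr3, a nuclear hormone receptor, and CG5776 rest on few counts. Hr3 had 0 distal counts of 26 in control, which allows a distal share of up to 11.5%, and 95 distal of 107 counts in cbc_KD. CG5776 had 0 of 13, which allows up to 23.1%. These limits, 3 counts over both libraries, cover counting error only.

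**Figure D2:**
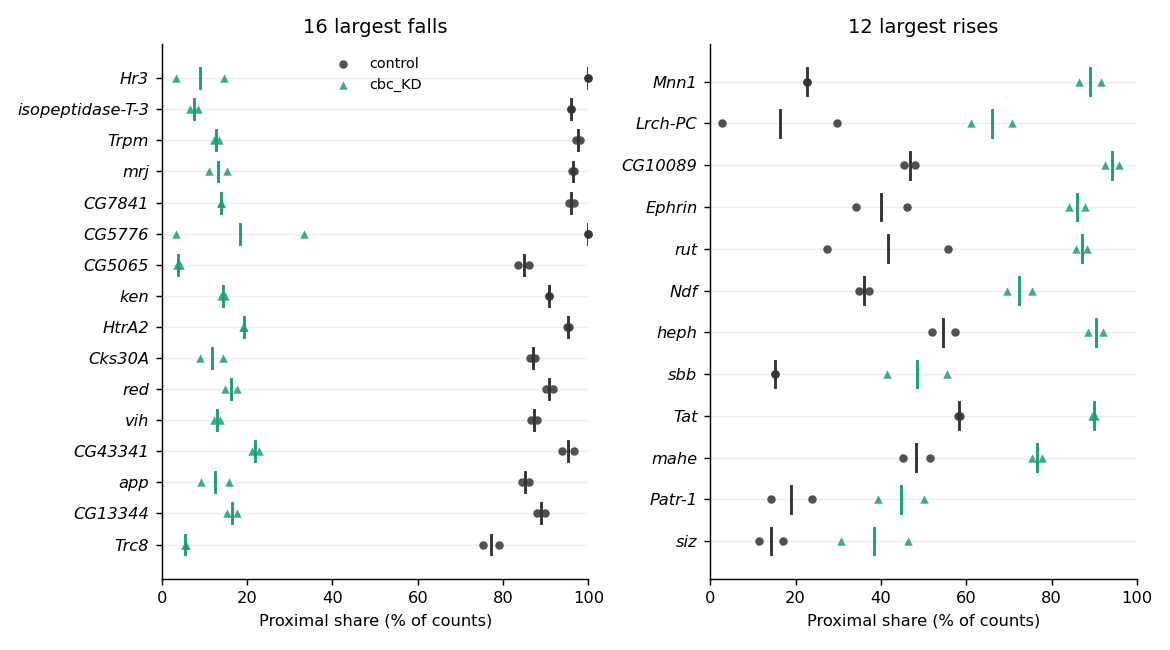
Proximal share (% of counts) in each control library (circles) and each cbc_KD library (triangles), with a bar at each mean, for the 16 genes with the largest falls and the 12 with the largest rises among genes past the test. Among the falling genes the lowest control value is 75.3% (Trc8) and the highest cbc_KD value 33.3% (CG5776).

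Of the 35 genes that moved toward the proximal site, heph, the polypyrimidine tract binding protein, had the deepest counts among the 12 named. Its proximal counts were 873 and 623 in control and 1935 and 2189 in cbc_KD, and its distal counts 651 and 577 against 249 and 189. Shares were 57.3% and 51.9% in control and 88.6% and 92.0% in cbc_KD (log2 odds 2.98 ± 0.40 SE, adjusted p = 1.75e-05). The total of heph did not pass (log2 0.10 ± 0.20). Ephrin, a ligand of Eph receptors, had shares of 34.2% and 46.1% in control and of 84.1% and 87.8% in cbc_KD (log2 odds 3.21 ± 0.32 SE, adjusted p = 9.44e-07).

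CG10089 went from 46.8% ± 1.85 to 94.1% ± 2.32, and its total rose by a log2 value of 2.06 ± 0.17 (adjusted p = 1.59e-07). Tat, an alpha-tubulin acetyltransferase gene annotated as Atat, had shares of 58.1% and 58.5% in control and 90.3% and 89.6% in cbc_KD. Cpsf5 is annotated at its distal site on the opposite strand. Mnn1 (menin), rut (an adenylyl cyclase), Ndf (a nucleosome factor), sbb (a transcriptional regulator) and the Lrch-PC entry also moved toward proximal. Lrch-PC went from 16.3% to 66.0%, while the other entry of that gene, Lrch-PA, moved toward distal (83.1% to 50.3%). Mnn1 had the largest rise, from 22.7% in both controls to 86.4% and 91.7%, on 44 control and 34 cbc_KD counts. mahe, Patr-1 (a decapping activator) and siz (a guanine exchange factor for Arf) passed with adjusted p = 0.0216, 0.0385 and 0.0216. Leaving out either control replicate 2 or cbc_KD replicate 1 ended the calls of mahe, Patr-1 and siz. Without control replicate 1 the call of Patr-1 also ended, and without cbc_KD replicate 2 that of mahe.

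The lists of genes by function were read beside the 60.6% of all tested genes that moved toward distal. Of the 16 cell cycle and meiosis genes tested, 12 moved toward distal (75%), 0 toward proximal, and 4 did not pass (Cdk5, CycT, mei-41 and tws). Totals passed as higher in 10 of the 16 and lower in 2, with a median log2 change of 0.89; over all tested genes 32.6% were higher and 30.1% lower. twe, the Cdc25 phosphatase of male meiosis, had distal counts of 2 and 3 in control and of 162 and 175 in cbc_KD, while its proximal counts went from 283 and 279 to 958 and 1028. Its proximal share thus stayed the larger one, at 99.1% in control and 85.5% in cbc_KD, and EndoGI is annotated at its distal site on the opposite strand.

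gwl (Greatwall kinase, needed for mitotic and meiotic entry) had proximal counts of 16 and 11 in control and 14 and 25 in cbc_KD, against distal counts of 16 and 20 and of 367 and 304. The added mRNA was almost all at the distal site, and the total rose by a log2 value of 2.85 ± 0.21 (SE, adjusted p = 4.39e-08). mei-S332, the shugoshin that protects sister centromeres, had shares of 59.3% and 61.9% in control and of 7.61% and 10.2% in cbc_KD, with a total higher by a log2 value of 1.32 ± 0.13. Wee1, the inhibitory kinase of Cdk1, went from 70.3% ± 7.28 to 12.1% ± 0.530, and Rat1 is annotated at its distal site. The mitotic cyclins moved by different amounts. CycA was at 96.9% in control and 71.5% in cbc_KD, CycB at 98.7% and 63.9%, and CycB3 at 91.2% and 42.3%. The total of CycA rose (log2 2.02 ± 0.24 SE), while those of CycB and CycB3 did not pass. fzr (Cdh1, which switches on the anaphase-promoting complex) fell in total (log2 -2.08 ± 0.14 SE) as its share fell from 94.0% to 31.3%.

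All 7 mitochondrial genes but mRpS5 moved toward distal, and none had a higher total, with 5 lower, where 30.1% of all tested genes were lower. MCU, the calcium uniporter, was at 84.9% in control and 15.1% in cbc_KD, and Mitofilin, of the cristae junctions, at 82.2% and 21.6%. The import receptors and pore moved less, Tom40 from 77.9% to 50.4% and Tom70 from 85.8% to 46.3%. Of 8 membrane trafficking genes 7 moved toward distal. EMC1, of the ER membrane insertion complex, had shares of 72.9% and 76.6% in control and of 8.44% and 7.57% in cbc_KD, and the SNARE Syx6 from 75.5% to 12.2%. The endosomal GTPase Rab5 did not pass and had cbc_KD shares of 23.7% and 55.5%, far apart between duplicates. Of 17 ubiquitin and proteasome entries 13 moved toward distal and 0 toward proximal. Both entries of Cbl are counted there and did not pass. The deubiquitinases Duba (95.1% to 26.3%), Usp8 (43.3% to 3.54%) and Usp7 (24.2% to 2.23%) did so from very different control shares.

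Among 10 entries listed for translation and RNA-binding, 6 moved toward distal and 3 toward proximal. The gene Lrch is counted there both as Lrch-PA, toward distal, and as Lrch-PC, toward proximal. orb, a CPEB protein that regulates translation in germ cells, was nearly all proximal in control (99.9%) and still 92.9% in cbc_KD, with distal counts of 5 and 3 against 410 and 399. orb2, the other fly CPEB, went from 97.6% to 48.1%. Imp, a binding protein of mRNAs, went from 91.7% to 72.7%. The 27 signalling entries split, with 8 toward distal, 7 toward proximal and 12 not passed, among them both entries of Cbl. Those toward distal included the kinase Akt1 (96.2% to 52.9%) and the Notch ligand Dl (78.6% to 17.6%). Those toward proximal included the adaptor drk (67.0% to 84.7%) and the polarity protein par-6 (24.7% to 37.8%). Of 29 chromatin and transcription entries 17 moved toward distal, such as the remodeller Chd1 (81.4% to 23.1%). In that list 4 moved toward proximal, including the histone demethylases Kdm4A (37.5% to 51.8%) and lid (43.9% to 61.9%). The gene E(bx) is counted there both as E(bx)-PA, toward distal, and as E(bx)-PC, which did not pass. Of 9 centriole, motor and microtubule entries 4 moved toward distal, and 6 had a higher total (5 with DESeq2), where 32.6% of all tested genes were higher. The gene cnn is counted there both as cnn-PD, with a higher total, and as cnn-PI, with a lower total. The gamma-tubulin complex gene Grip71 went from 53.6% to 3.28% and its total rose by a log2 value of 2.23 ± 0.20 (SE); Irk3 is annotated at its sites.

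**Figure D3:**
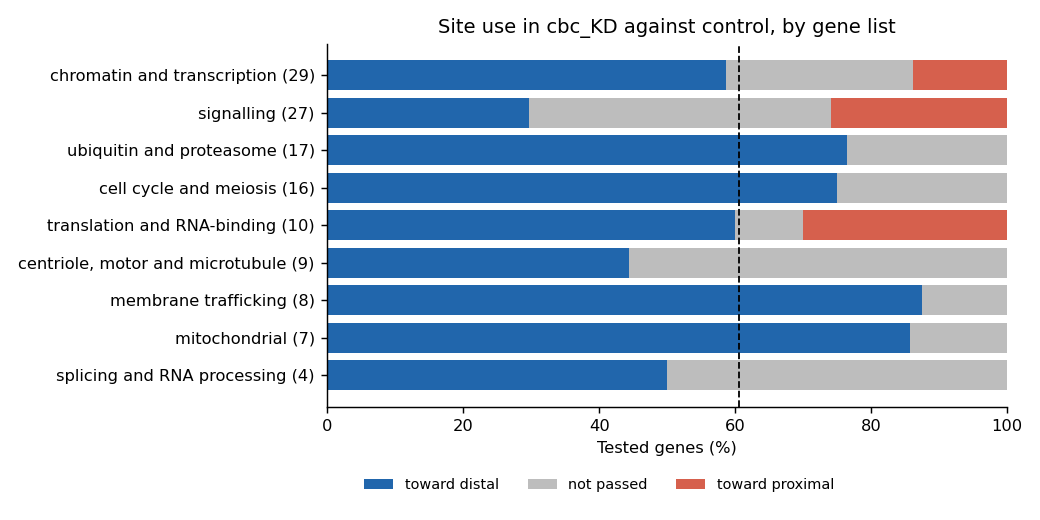
Percent of the tested entries of each list that moved toward distal or toward proximal in cbc_KD, for lists with at least 4 tested entries. The dashed line is the 60.6% of all 525 tested entries that moved toward distal. Signalling entries (8 of 27) lie lowest, and membrane trafficking (7 of 8) and mitochondrial entries (6 of 7) highest.

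Each site was also tested by itself, scaled by the TMM factors of the gene totals. Proximal sites fell in 255 of 517 genes (49.3%) and rose in 88 (17.0%), while distal sites rose in 289 of 482 (60.0%) and fell in 49 (10.2%). With library size alone as the scale, proximal sites rose in 123 and fell in 219. Both sites could be tested in 475 genes. In 148 of them (31.2%) the proximal site fell and the distal site rose, as in HtrA2 (log2 -3.41 and 2.97) and Trpm (-5.17 and 2.91). The distal site alone passed as higher in 85, and the proximal site alone as lower in 65. chinmo, a transcription factor of early germ and stem cells, gained 3.70 on the log2 scale at its distal site. Its distal counts were 74 and 92 in control and 1760 and 1630 in cbc_KD, and its proximal share 81.0% ± 0.825 and 15.7% ± 1.10.

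**Figure D4:**
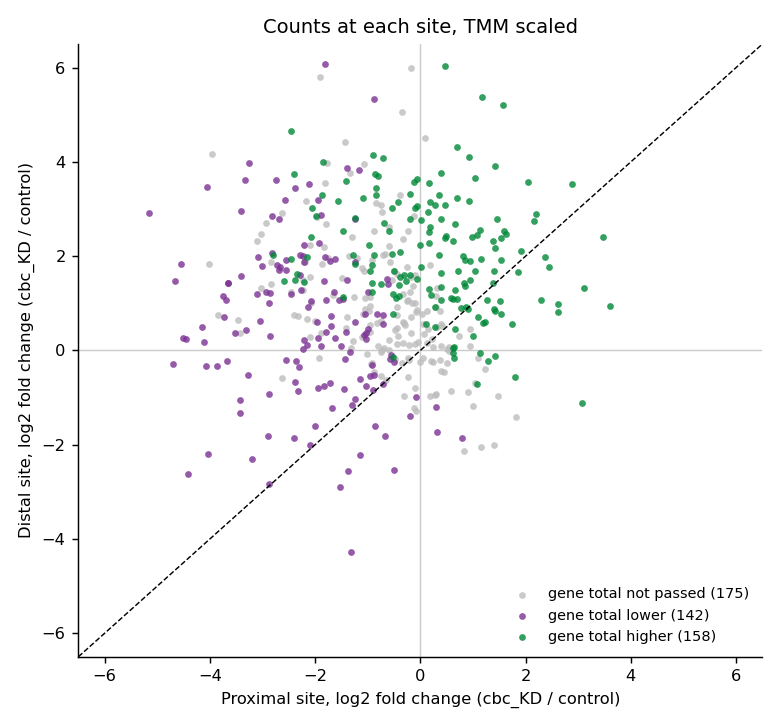
Log2 change from control to cbc_KD at the proximal site (horizontal) and the distal site (vertical) of 475 genes, coloured by whether the gene total was higher, lower or did not pass; the dashed line marks equal change at both sites. Most points lie above the line, in all 3 colours.

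Gene totals, the summed counts of an entry's sites, moved both ways. They passed as higher in 171 genes (32.6%) and lower in 158 (30.1%), with a median log2 change of 0.03. Library sizes and TMM factors came only from counts at the listed sites, and TMM assumes that most of these totals do not change. That median is thus set largely by the scaling, and the split into higher and lower depends on it. With library size alone as the scale the median was 0.37, with 222 higher and 110 lower. In bulk testes, fewer cells of a type and less RNA per cell cannot be told apart. Of the 318 genes that moved toward distal, the total was higher in 32.7%, lower in 35.5% and did not pass in 31.8%. Across 525 genes the log2 change of the total and the log2 odds had r = 0.13, a description over genes that share the same 4 libraries.

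The totals that fell most included axed, a gene of axon degeneration, with 5797 and 6608 TMM-scaled CPM (library totals made comparable) in control and 431.6 and 381.1 in cbc_KD (log2 -3.93 ± 0.24 SE, adjusted p = 9.97e-09). Its share moved too, from 99.3% to 64.3%. dsh (Dishevelled, of Wnt signalling) had 2106 and 2675 CPM in control and 228.3 and 280.8 in cbc_KD. lqf, the fly epsin, fell by 3.08 on the log2 scale, HDAC4 by 3.57 and the homeotic gene Antp by 3.34. CG32161, CG4497 and dpr9 completed the 8 largest falls. All control values of axed, dsh and lqf were several times the highest cbc_KD value.

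The totals that rose most were Tat, cnn-PD, RtGEF, gwl, Cbl-PB, S6KL, l(3)04053 and CG32100. Those of cnn-PD and Cbl-PB are totals of single entries and not of the whole gene. The other entry of cnn, cnn-PI, was lower (log2 -1.04), and that of Cbl, Cbl-PA, did not pass (log2 0.53). Tat had 173.6 and 161.8 CPM in control and 1496 and 1169 in cbc_KD (log2 2.99 ± 0.15 SE, adjusted p = 3.05e-09). RtGEF had 112.0 and 146.6 CPM against 1047 and 862.5. In RtGEF the rise was at the distal site, with proximal counts of 14 and 16 in control and 12 and 14 in cbc_KD.

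The cell type markers measured were few. The somatic cyst cell marker zfh1, 1 of 3 listed, had 456.4 and 482.5 CPM in control and 153.4 and 151.4 in cbc_KD (log2 -1.62 ± 0.23 SE). The genes simj and twe, 2 of 14 listed for spermatocytes, summed to 1277 and 1460 CPM in control and 2996 and 3128 in cbc_KD. The total of twe rose by a log2 value of 1.39 and that of simj by 0.73. simj is also on the list of chromatin and transcription genes. The spermatogonial markers Rbp9 and chinmo, 2 of 8, moved apart (log2 -2.08 and 1.56), with sums of 2722 and 2895 CPM against 4416 and 3834. The spermatid markers m-cup, nes and r-cup, 3 of 12, summed to 9552 and 10520 CPM against 8833 and 8629, with m-cup lower (log2 -0.67), nes higher (0.62) and r-cup not past the test. No measured marker was at 0, and 0 of 3 muscle and sheath markers were measured. The part of such shifts in the site changes was not tested.

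Some genes are listed as several entries, each with its own sites. For cnn (centrosomin, the scaffold of the pericentriolar material), the upstream entry cnn-PI held 86.8% and 85.5% of cnn counts in the control libraries and 28.3% and 28.0% in the cbc_KD libraries. Counts of the downstream entry cnn-PD, 3258 nt farther, were 159 and 160 in control and 1944 and 1927 in cbc_KD. Within each entry the proximal share did not pass, so the 2-site comparison did not show this shift. Cbl, a ubiquitin ligase, had 89.5% ± 0.630 of counts on its upstream entry in control and 61.3% ± 11.7 in cbc_KD. For E(bx), a subunit of the NURF remodeller, the values were 31.1% ± 9.12 and 10.3% ± 1.28. In the other 4 genes with several entries, lola, loqs, Lrch and mod(mdg4), the group means differed by less than the cbc_KD duplicates did.

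In 24 entries 3 sites were listed, and in 19 of them the one left out of the 2-site comparison was the third, farthest one. CG30015 had third-site counts of 73 and 53 in control and 1272 and 1287 in cbc_KD, which is 4.45% ± 0.795 and 76.2% ± 1.63 of its counts. E(Pc), an Enhancer of Polycomb subunit of histone acetyltransferase complexes, had 19.99% ± 1.16 and 72.5% ± 2.22 at the third site. Between its nearer sites E(Pc) moved toward proximal (log2 odds 1.38, adjusted p = 0.00273), while all nearer sites against the farthest one gave -3.39 (adjusted p = 2.38e-06). That second comparison, added after the data had been seen, put 15 of the 24 entries toward the farthest site and 3 (CG2186, siz and stwl) toward the nearer ones. cal1, which loads the centromeric histone, went from 2.85% to 48.7% at the third site. In 8 entries, cal1 among them, the compared sites lie 31 to 84 nt apart, so that their 30-nt counting blocks may share reads; 0 of these 8 passed in the 2-site comparison and 7 passed toward the farthest site.

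**Figure D5:**
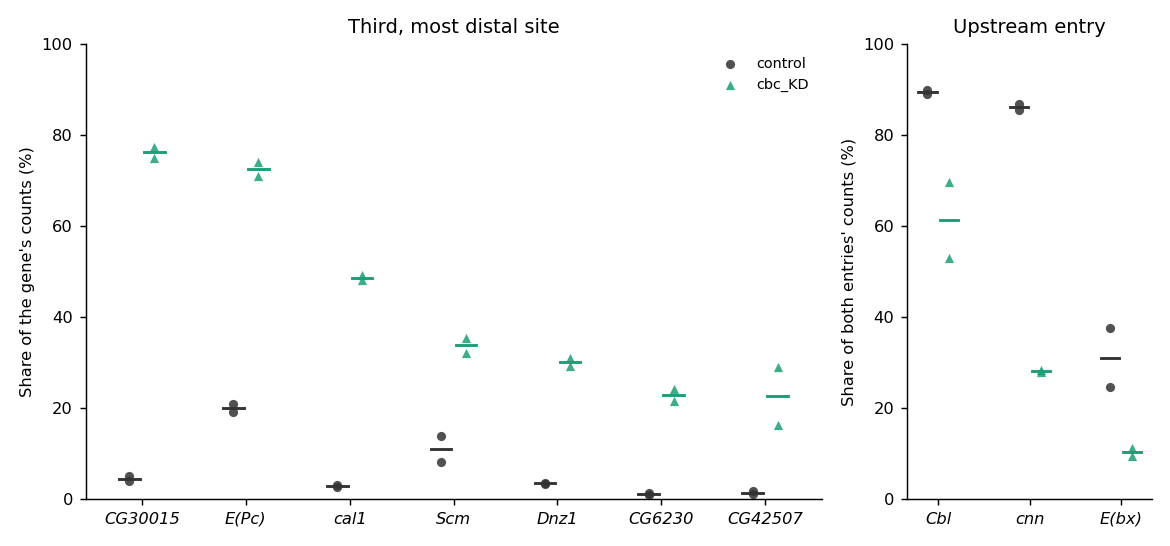
Left, third-site counts as percent of all counts of the gene in each control and cbc_KD library, for CG30015, E(Pc), cal1, Scm, Dnz1, CG6230 and CG42507; right, percent of counts on the upstream entry for Cbl, cnn and E(bx). The 7 genes on the left were picked for a third-site share higher in cbc_KD by at least 10 points. They also had to pass, at an adjusted p under 0.05, for all nearer sites against the farthest one. In each of them both cbc_KD values lie above both control values, which this choice largely fixes.

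PCF11 is the other cleavage factor II subunit, and it was knocked down with the same driver by 2 RNAi lines, PCF11_KD and PCF11_NIG_KD. Set directly against them, cbc_KD used the distal site more in 238 genes (45.3%) and the proximal site more in 29 (5.52%) relative to PCF11_KD. Relative to PCF11_NIG_KD the counts were 295 (56.2%) and 23 (4.38%). In 208 genes cbc_KD was more distal than both lines, and in 10 more proximal than both. How far each knockdown lowered its target was not measured, so a subunit and the strength of its knockdown cannot be told apart. A batch, which the labels do not give, and a difference between cbc_KD and the PCF11 lines cannot be told apart either.

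The palmitoyltransferase gene app had a proximal share of 12.4% ± 4.70 in cbc_KD, 58.1% ± 0.643 in PCF11_KD and 83.1% ± 1.24 in PCF11_NIG_KD. CG43954 was at 14.3%, 61.6% and 85.6%, and fdl, a hexosaminidase, at 15.0%, 62.1% and 80.5%. The kinesin Klp98A had 34.05% ± 0.591 in cbc_KD against 91.9% ± 6.17 and 95.9% ± 0.276 in the PCF11 lines. In the other direction, the kinase gene Slik had 97.3% proximal use with cbc_KD against 76.7% and 79.2% with the PCF11 lines, and gdl-ORF39 67.8% against 40.0% and 54.3%. mol was at 64.6%, 33.0% and 30.4%, with adjusted p = 0.0480 and 0.0244 in edgeR's quasi-likelihood test. Against PCF11_KD mol no longer passed with the replicate block (adjusted p = 0.0566) or without any 1 of the 4 libraries (0.0533 to 0.280), and against PCF11_NIG_KD without 3 of the 4 (0.0593 to 0.128). Slik did not pass against either line without cbc_KD replicate 1 (0.0632 and 0.0530), nor gdl-ORF39 against PCF11_NIG_KD without cbc_KD replicate 2 (0.113) or PCF11_NIG_KD replicate 1 (0.0882). Without replicate 1 of PCF11_KD, 15 genes rather than 29 were more proximal than in PCF11_KD. Leaving out any 1 cbc_KD or PCF11_NIG_KD library left 10 to 13 rather than 23.

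The position of the sites was compared with the calls as a description. Of genes with sites at most 250 nt apart 61.7% moved toward distal, of those farther apart but within 600 nt 66.3%, and of those beyond 600 nt 52.9%. Where the distal site lies downstream of the annotated gene end, 69.1% of 220 genes moved toward distal, such as mrj and ken, against 54.1% of 292 where it lies in the 3′ UTR. Fs(2)Ket, an importin, has the widest spacing at 11957 nt, and went from 67.8% to 20.5%, with Amacr annotated at its distal site. Genes with 90 to 100% proximal use in control moved toward distal in 77.9% and toward proximal in 1.38%. For those with 0 to 25% the values were 18.2% and 30.3%. These classes use the same control shares as the change itself, so a low share leaves little room to fall. Median control counts per library also differed, at 637 and 80.5. Deeper counts went with more calls, from 45.1% in the lowest tercile of control counts to 80% in the highest.

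In the authors' deposited table, 307 of the 308 genes found here toward distal and listed there had the matching sign of their PolyAIndex at an adjusted p under 0.05. So did 34 of the 35 toward proximal. The 2 with opposite signs in the authors' deposited table were E(Pc) and stwl, both with 3 sites. The authors' deposited table also called 73 genes that did not pass here.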

How the data were processed

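The authors deposited raw counts per poly(A) site from PolyA-miner. Its run log gives unstranded counting (0), no molecular identifiers (0), 30-nt blocks, no new sites (0), a gene minimum of 10 and a minimum site share of 0.05. The submitters' processing notes name Bowtie, SAMtools, dm6 and BDGP6, with no versions. The authors' deposited table of this comparison holds a PolyAIndex score and p-values per gene.

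Site use was tested with edgeR 4.0.16 (R 4.3.3; quasi-likelihood, a coefficient per library, site by group, all 18 libraries) on raw counts of the 2 sites with most counts, at an adjusted p (Benjamini-Hochberg) under 0.05 and a mean of at least 10 counts. Totals, summed per entry, and single sites used TMM scaling, with library sizes and factors from the listed sites only. Shares and figures came from Python 3.11.15, pandas 2.3.3, SciPy 1.17.1 and matplotlib 3.10.9. DESeq2 1.42.0, other scalings, filters, site choices and left-out libraries were alternatives. Tested on simulated data, 37% of genes shifted by a log2 odds of 1 and 88% of those shifted by 2 were recovered for site use over 525 genes, with 1.54% of unshifted genes called. The simulation gave every gene the same dispersion and shifted equal numbers of genes each way, while most calls here were toward distal. Its rates may therefore differ from those on these data.

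Named genes were the 16 largest falls and 12 largest rises of the share past the test with no overlap, the 8 largest changes of totals each way, and the 4 largest differences each way from both PCF11 lines. Other genes are members of lists by function or were chosen after their values were seen. The members and lists were chosen with earlier results of these data known. Of 529 entries, 509 matched the annotation by symbol and 20 by an older symbol, and 371 of the tested entries have no other annotated gene at a site. The deviations of same-numbered control and cbc_KD libraries had a correlation of -0.0212 for site use and -0.195 for totals over 479 genes. The labels give no pairing or batch, so a batch and the group cannot be told apart. Sample numbers in the headers of the count columns repeat within the series, and the sources used here do not say what they mark. Sequences were not used here.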

Additional observations from a re-analysis of the deposited data

Results flagged for a closer look

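These values come from the farthest site of genes with 3 listed sites, where the 2-site comparison leaves that site out. Of 19 such sites, 7 are given here, picked for a share higher in cbc_KD by at least 10 points. They also had to pass, at an adjusted p under 0.05, for all nearer sites against the farthest. Lying above the control level is thus part of the choice. The sites not given include shares that rose by less than 10 points. They also include shares that fell, as in CG2186 (19.2% to 3.495%) and stwl (27.85% to 11.13%). CG30015 had 76.2% of its counts at the third site in cbc_KD and 4.45% in control. E(Pc) had 72.5% there against 19.99%. cal1 had 48.7% against 2.85%. Scm, a Polycomb group gene, had 33.8% against 10.9%. Dnz1 had 30.1% against 3.46%. CG6230 had 22.9% against 1.00%. CG42507 had 22.6% ± 9.10 (SD, n = 2) against 1.34% ± 0.498.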

How the results depend on the processing

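Leaving out 1 library gave 269 to 301 genes toward distal and 25 to 33 toward proximal, totals higher in 144 to 162 and lower in 136 to 146, and a median share change of -18.0 to -15.4 points; against PCF11_KD 201 to 231 genes were more distal and 15 to 24 more proximal, and against PCF11_NIG_KD 249 to 282 and 10 to 13. The share of all counts summed changed by -27.6 points. DESeq2 gave 312 and 35, of which 311 and 34 are shared with edgeR's 318 and 35, and the 4 libraries alone 290 and 30. With the replicate block, which the labels do not justify as a pairing, 322 and 38 genes passed for site use and 172 and 163 for totals; crossing the cbc_KD numbers, chosen after seeing the data, gave 173 and 160. Among values that passed the test in at least 1 of the compared fits, the directions that turned, with the cause not tested, were the total of Lrch-PA (0.29 with all libraries, 0.80 without cbc_KD replicate 1, -0.49 without cbc_KD replicate 2), the total of twin with library size alone (0.32), and E(Pc) for the most proximal site against all others (-0.79). With all nearer sites against the farthest one, by the same criterion, they were CG14269 (-2.95), CG2186 (2.68), E(Pc) (-3.39), Hr39 (0.84) and stwl (1.66). Sign changes of values that passed in neither fit are not listed. Depth limits genes of few counts, such as Mnn1, Hr3 and CG5776.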
